A study of Mus musculus with 6 samples.

Results

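Cda, C2cd4a, Cask, Plek2, Prl2c5, Epdr1, Defb26, Car1 and Car2 are 9 of the 30409 genes measured by RNA-seq in haematopoietic stem cells of irradiated and unirradiated mice. The first 7 are little discussed in these cells and were chosen because they stood among the largest increases after irradiation in either or both genotypes. The carbonic anhydrase genes Car1 and Car2 were added to them. The members were thus selected on their FPKM after irradiation against steady state, and that increase is given here as a description. The cells were long-term haematopoietic stem cells (Lineage-Sca1+cKit+CD34-Flk2-), sorted from the marrow of C57BL/6 mice. There were 4 groups with 1 library each: Twist1 cKO mice 12 days after irradiation, wild-type mice 12 days after irradiation, Twist1 cKO mice at steady state and wild-type mice at steady state. The Cre line behind the conditional knockout, the radiation dose, the age and sex of the mice and the number of animals per library are not given in the sources used here. With 1 library per group no difference below has a replicate check, and no p-value is given. Intervals are 95% intervals for counting error alone, which leaves out the spread between animals.

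The products of these genes work in unrelated places. Cda encodes cytidine deaminase, which turns cytidine and deoxycytidine into their uridine counterparts, and Car1 and Car2 encode the cytosolic carbonic anhydrases of red cells, which interconvert carbon dioxide and bicarbonate. Cask encodes a membrane-associated guanylate kinase scaffold best known from synapses and epithelia, Plek2 a lipid-binding relative of the platelet protein pleckstrin that acts on the actin cytoskeleton and is known in mouse erythroblasts, and C2cd4a a small nuclear protein studied mostly in endothelium and pancreatic islets. Prl2c5 belongs to the proliferins, placental relatives of prolactin found in rodents, Defb26 encodes a beta-defensin from a gene cluster known mainly in the epididymis, and Epdr1 encodes a secreted and lysosomal glycoprotein related to the ependymins of fish brain. Long-term stem cells normally divide rarely, and after marrow irradiation the surviving cells are called on to rebuild blood, red cells included.

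Promoters are shown first because genes that share a rise in the same libraries may be compared at their start sites. RefSeq (GRCm38.p6) promoter entries covering 250 bases before to 50 bases after the start were found for 6 of the 9 genes; Cask, Car1 and Car2 had none in the table used. In each were searched, on both strands, GATAA (the core letters of GATA factor sites), CCNCNCCC (letters of the CACCC boxes bound by Klf1 and its relatives), CANNTG (the E-box bound by basic helix-loop-helix factors such as Twist1), its form CATCTG, which is also a CANNTG, and TATAAA (the TATA box). The 120 bases before the start are printed for the 4 genes with a match there, 5′ to 3′ on the gene's strand, with the matches in capitals. They lie on the minus strand at chr4:138367956-138368075 (Cda), chr9:67832331-67832450 (C2cd4a), chr12:78906939-78907058 (Plek2) and chr2:152511737-152511856 (Defb26). For Cda and Plek2 the printed bases lie inside the gene's annotated span, whose outer end is further upstream than the start used here. Their matches thus lie within the annotated gene.
Cda: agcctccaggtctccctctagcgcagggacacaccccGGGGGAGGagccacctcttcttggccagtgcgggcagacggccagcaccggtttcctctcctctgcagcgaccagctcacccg
C2cd4a: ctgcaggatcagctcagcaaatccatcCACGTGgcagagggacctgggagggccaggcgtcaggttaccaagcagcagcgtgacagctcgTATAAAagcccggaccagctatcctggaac
Plek2: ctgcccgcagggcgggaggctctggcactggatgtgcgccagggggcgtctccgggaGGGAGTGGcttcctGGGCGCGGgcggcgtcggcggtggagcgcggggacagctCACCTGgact
Defb26: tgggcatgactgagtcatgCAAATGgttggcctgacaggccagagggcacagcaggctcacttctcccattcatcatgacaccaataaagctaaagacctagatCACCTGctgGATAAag
The 6 promoters held no motif in common. GATAA was present in 2 of the 6, at 7 bases before the start in Defb26 and, outside the bases printed, in Prl2c5, against 25.4% of the 32851 promoters in the table. CCNCNCCC was present in 2, as GGGGGAGG in Cda and as GGGAGTGG and GGGCGCGG in Plek2, against 49.5% of all promoters. An E-box was present in 3 of the 6 (C2cd4a, Plek2 and Defb26), against 72.3% of all promoters, and CATCTG in 0, against 17.2%. A TATAAA stood 30 bases before the start of C2cd4a and in no other of the 6, against 13.6% of all promoters. The GC content of the promoter entries ran from 38.7% in Prl2c5 to 68.3% in Cda and 68.7% in Plek2, and Epdr1, at 45.7%, matched none of the motifs. A match describes letters only.

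Levels are in FPKM, fragments scaled by gene length and library size, as computed by the authors, so they can be compared between genes. Read numbers were worked back from the FPKM. Differences are on the log2(FPKM + 1) scale, which understates the change of genes near 0, and are called when the higher library reached 5 FPKM and the difference was at least 2-fold. All 9 genes passed that minimum in both irradiation comparisons, but 6 of them, all except Epdr1, Car1 and Car2, passed only through the irradiated library. In cKO cells 8 of the 9 were called higher after irradiation, where 10.3% of all 7393 genes kept were. In wild-type cells all 9 were called higher, where 18.9% of 7418 genes were. These counts follow from how the genes were chosen. Car2 in cKO cells, at 1.66-fold, was not called on the values as deposited.

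**Figure D1:**
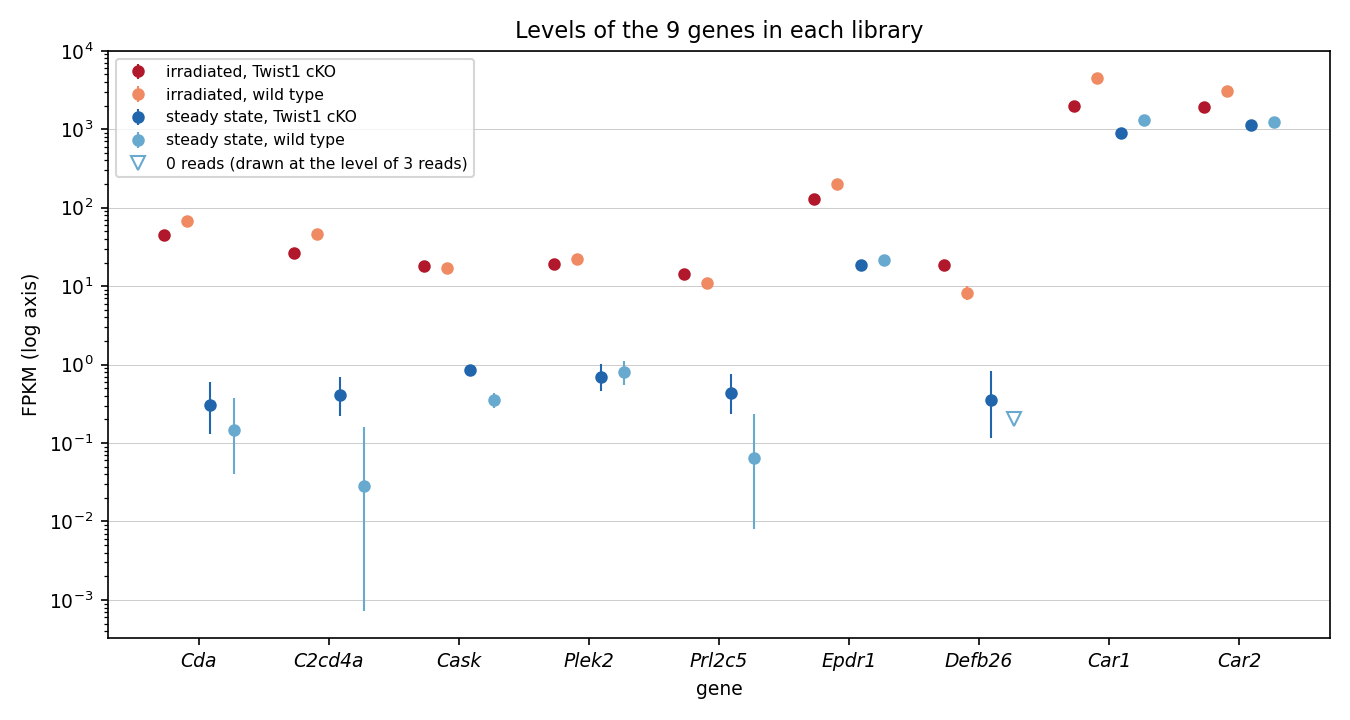
FPKM of the 9 genes (log axis) in the 4 libraries; bars are 95% counting intervals and the open triangle marks 0 reads, drawn at the level of 3 reads. The irradiated libraries lie above 8 FPKM for every gene, and the steady-state libraries lie below 1 FPKM for all but Epdr1, Car1 and Car2.

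The 9 genes formed 3 tiers of level. Car1 and Car2 were among the most abundant transcripts of every library, Epdr1 lay between, and the other 6 were close to silent at steady state. Among all genes Car1 ranked 22 in the irradiated cKO library, 4 in the irradiated wild-type library, 44 in the steady-state cKO library and 33 in the steady-state wild-type library. Defb26 ranked 2864 and 4947 in the irradiated cKO and wild-type libraries and 14425 in steady-state cKO cells, with no read in steady-state wild-type cells, and was the lowest of the 9 in both wild-type libraries. In the cKO libraries the lowest of the 9 were Prl2c5 after irradiation, at rank 3349, and Cda at steady state, at rank 14846.

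Cda (ENSMUSG00000028755, chr4:138338528-138368311) had the largest rise of the 9 on the log2(FPKM + 1) scale. It stood at 45.1 FPKM in irradiated cKO cells and 67.1 FPKM in irradiated wild-type cells, against 0.306 FPKM in steady-state cKO cells and 0.148 FPKM in steady-state wild-type cells. The steady-state values rest on 8 reads in cKO and 4 reads in wild type, the irradiated ones on 1094 and 1538 reads. The FPKM ratio of irradiated to steady-state cells was 147 in cKO (interval 74.4 to 342) and 452 in wild type (176 to 1661). On the log2(FPKM + 1) scale the rise was 5.14 in cKO, rank 15 of all genes kept, and 5.89 in wild type, rank 7. Both irradiated libraries were high and both steady-state libraries near 0, the pattern this gene was chosen for.

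Cda is a step of pyrimidine salvage, by which cells reuse nucleosides instead of making them anew. Of 24 genes of salvage and nucleoside transport, 17 were kept. In cKO cells 3, Cda among them, were called higher and 3 lower after irradiation (10.3% of all genes were higher and 22.6% lower). The median difference was 0.12, against a median over all genes of -0.20. In wild-type cells 6, Cda among them, were called higher and 2 lower (18.9% of all genes were higher and 18.9% lower). The median was 0.46, against 0.21 over all genes. Called higher in both genotypes beside Cda were Slc29a1, the equilibrative nucleoside transporter (34.7 and 44.2 FPKM in irradiated cKO and wild-type cells, 13.8 and 16.1 FPKM in steady-state cKO and wild-type cells), and Nme1, a nucleoside diphosphate kinase (72.2 and 112 FPKM in irradiated cKO and wild-type cells, 29.4 and 36.5 FPKM in steady-state cKO and wild-type cells). Upp1, the phosphorylase that splits the uridine made by cytidine deaminase, went the other way, with 0.522 and 0.207 FPKM in irradiated cKO and wild-type cells, against 13.5 FPKM in steady-state cKO and 13.3 FPKM in steady-state wild-type cells. Its differences of -3.25 in cKO and -3.57 in wild type were the lowest of the list. Slc28a2, a concentrative nucleoside transporter, was also called lower in both genotypes, at -1.95 and -1.78. Of the 8 measured genes sharing the deaminase fold, 6 were kept, and Cda was the only one called in cKO cells. In wild-type cells the tRNA deaminase subunit Adat2 was called too, at 28.6 FPKM in irradiated cells and 8.52 FPKM at steady state.

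Car1 (ENSMUSG00000027556, chr3:14766214-14808365) and Car2 (ENSMUSG00000027562, chr3:14886269-14900770) lie in a cluster on chromosome 3, with Car3 between them. Car1 reached 1995 FPKM in irradiated cKO cells and 4546 FPKM in irradiated wild-type cells, against 905 FPKM in steady-state cKO cells and 1318 FPKM in steady-state wild-type cells. Car2 reached 1893 and 3055 FPKM in irradiated cKO and wild-type cells, against 1139 and 1233 FPKM in steady-state cKO and wild-type cells. Both were thus already high at steady state. The ratio of irradiated to steady state for Car1 was 2.20 in cKO (2.17 to 2.24) and 3.45 in wild type (3.41 to 3.49). For Car2 it was 1.66 in cKO (1.65 to 1.68) and 2.48 in wild type (2.46 to 2.50). Calls near the threshold depended on scaling: under upper-quartile scaling Car2 was called in cKO too, at 1.74 on the log2 scale against 0.73 as deposited. With the 50 most abundant genes left out and the rest rescaled, Car1 in cKO (0.99) and Car2 in wild type (0.96) were not called. The counting intervals are narrow because each value rests on 28511 reads or more. Together Car1 and Car2 took 0.815% of recovered reads in irradiated cKO cells and 1.17% in irradiated wild-type cells, against 0.444% and 0.480% in steady-state cKO and wild-type cells. The FPKM ratio of Car1 to Car2 was 1.05 and 1.49 in irradiated cKO and wild-type cells, against 0.795 and 1.07 in steady-state cKO and wild-type cells.

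Of 15 carbonic anhydrase genes present, 5 were kept. In cKO cells Car1, Car3 and Car13 were called higher, where 10.3% of all genes were, and Car9 lower, where 22.6% were. In wild-type cells Car1, Car2 and Car13 were called higher, where 18.9% of all genes were, and none lower. Car13, a cytosolic isozyme, stood at 8.48 and 11.2 FPKM in irradiated cKO and wild-type cells, against 2.64 FPKM in each steady-state library. Car3, the muscle and fat isozyme, stood at 9.90 and 5.60 FPKM in irradiated cKO and wild-type cells, against 3.28 and 3.82 FPKM in steady-state cKO and wild-type cells. Car9, the hypoxia-induced membrane isozyme, stood at 2.63 and 3.23 FPKM in irradiated cKO and wild-type cells, against 8.36 and 6.10 FPKM in steady-state cKO and wild-type cells. A list of 10 genes of red-cell bicarbonate and carbon dioxide handling was made up of Car1, Car2 and 8 genes that are also erythroid markers. In cKO 8 of 10 kept genes were called higher, where 10.3% of all genes were. In wild type 8 of 9 were, against 18.9% of all genes. The medians were 2.66 in cKO and 1.91 in wild type. Car1 is among those called in cKO, and Car1 and Car2 are among those called in wild type, so the list is not separate from them. Aqp1, the water channel of the red-cell membrane, stood at 30.03 and 35.3 FPKM in irradiated cKO and wild-type cells, against 7.90 and 8.63 FPKM in steady-state cKO and wild-type cells.

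Cask (ENSMUSG00000031012, chrX:13517080-13846783) stood at 18.3 FPKM in irradiated cKO cells and 16.9 FPKM in irradiated wild-type cells, against 0.858 FPKM in steady-state cKO cells and 0.353 FPKM in steady-state wild-type cells. Its gene model of 9145 bases made it the best counted of the 6 low genes, with 3924 and 3413 reads in irradiated cKO and wild-type cells and 198 and 84 reads in steady-state cKO and wild-type cells. The irradiated to steady-state ratio was 21.3 in cKO (18.5 to 24.7) and 47.8 in wild type (38.5 to 60.0). The gene's span also holds Gpr34 and Gpr82, encoding G protein-coupled receptors, which did not share the pattern. Gpr34 stood at 2.41 and 1.56 FPKM in irradiated cKO and wild-type cells and 1.73 and 4.37 FPKM in steady-state cKO and wild-type cells, and Gpr82 was at 0.239 FPKM or less in all 4 libraries. Cask lies on the X chromosome, and sex-linked transcripts split the libraries as irradiation did. Ddx3y, on the Y chromosome, stood at 0.0164 and 0.0521 FPKM in irradiated cKO and wild-type cells, against 12.4 and 10.2 FPKM in steady-state cKO and wild-type cells. Xist, made from an inactive X chromosome, stood at 0.573 and 1.003 FPKM in irradiated cKO and wild-type cells, against 0.0155 and 0.0172 FPKM in steady-state cKO and wild-type cells. What separates the irradiated from the steady-state libraries, including what these transcripts mark, cannot be told apart from irradiation for any of the 9 genes. The 216 X-linked genes kept in cKO had a median difference of -0.18 after irradiation, against -0.20 for autosomal genes, and the 210 kept in wild type had a median of 0.27, against 0.21.

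Of 26 genes for Cask's relatives and binding partners, 7 were kept, with medians of -0.12 in cKO and 0.07 in wild type. Over all genes kept, 10.3% were called higher and 22.6% lower in cKO, and 18.9% were called higher and 18.9% lower in wild type. Cask was called higher in both genotypes. Sdc3, a syndecan, was also called higher in cKO (6.16 FPKM in irradiated and 2.20 FPKM in steady-state cells) and not in wild type (3.26 FPKM in irradiated and 5.45 FPKM in steady-state cells). Sdc2, another syndecan that Cask binds, was called lower in both, at 0.924 and 0.503 FPKM in irradiated cKO and wild-type cells, against 7.001 and 6.83 FPKM in steady-state cKO and wild-type cells. Mpp1, the erythrocyte membrane relative of Cask, stood at 22.1 and 24.4 FPKM in irradiated cKO and wild-type cells, against 12.8 and 14.3 FPKM in steady-state cKO and wild-type cells, and was not called.

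Plek2 (ENSMUSG00000021118, chr12:78888691-78907172) had the most similar ratios in the 2 genotypes among the 8 genes with reads in all 4 libraries. It stood at 19.4 and 22.4 FPKM in irradiated cKO and wild-type cells, against 0.701 and 0.801 FPKM in steady-state cKO and wild-type cells. The ratios were 27.7 in cKO (19.0 to 41.9) and 28.0 in wild type (19.8 to 41.0). Its relatives on a short list, where kept, moved the other way. Plek, the pleckstrin of platelets and leukocytes, stood at 5.51 and 2.97 FPKM in irradiated cKO and wild-type cells, against 16.5 and 13.5 FPKM in steady-state cKO and wild-type cells. Of the 5 kept among 6 pleckstrins and PH-domain relatives, Plek2 was called higher in both genotypes. Plek, Plekha2 and Plekho2 were called lower in both and Plekho1 in wild type. Over all genes kept, 22.6% were called lower in cKO and 18.9% in wild type. The list of 6 does not stand for all PH-domain genes.

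C2cd4a (ENSMUSG00000047990, chr9:67830532-67832330) stood at 26.5 and 45.8 FPKM in irradiated cKO and wild-type cells, against 0.410 and 0.0284 FPKM in steady-state cKO and wild-type cells. The steady-state values are 14 reads in cKO and 1 read in wild type, which sets the precision of the ratios. They were 64.5 in cKO (38.2 to 119) and 1610 in wild type (289 to 63650). Its relatives gave no sign of a rise: C2cd4b, a paralogue 69598 bases away, stood at 0.0321 FPKM in irradiated cKO cells, was listed at 0 in irradiated wild-type cells, and stood at 0.388 and 0.261 FPKM in steady-state cKO and wild-type cells. C2cd4d, the other relative measured, was at 0 in both irradiated libraries.

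Prl2c5 (ENSMUSG00000055360, chr13:13182703-13191930) stood at 14.1 and 10.9 FPKM in irradiated cKO and wild-type cells, against 0.438 and 0.0653 FPKM in steady-state cKO and wild-type cells. The ratio was 32.3 in cKO (18.7 to 61.2) and 167 in wild type (45.8 to 1385), the wild-type ratio resting on 2 steady-state reads. Of the prolactin family 16 genes were present here, the receptor Prlr among them, and none but Prl2c5 reached 5 FPKM in any library. The other proliferins measured, Prl2c1 and Prl2c3, had 2 reads or fewer in each library. Proliferin genes are near-identical copies of each other and some of them were not analysed here, so the reads given to Prl2c5 may belong in part to a copy.

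Defb26 (ENSMUSG00000074680, chr2:152507756-152511736) stood at 18.7 and 8.21 FPKM in irradiated cKO and wild-type cells, against 0.353 FPKM in steady-state cKO cells and 0 in steady-state wild-type cells. With 246 and 102 reads in irradiated cKO and wild-type cells, 5 in steady-state cKO cells and 0 in steady-state wild-type cells, it was the least counted of the 9. The ratio was 52.95 in cKO (22.4 to 165). In wild-type cells the ratio was 39.97 against a floor of 3 reads, or 0.205 FPKM. The counting interval for the observed 102 against 0 reads starts at 31.9 and has no upper end. Of 16 beta-defensin genes present, Defb26 alone reached 5 FPKM in any library. The next highest, Defb47 and Defb2, peaked at 1.69 FPKM in irradiated wild-type cells and 1.40 FPKM in irradiated cKO cells.

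Epdr1 (ENSMUSG00000002808, chr13:19591708-19619830) stood at 129 and 203 FPKM in irradiated cKO and wild-type cells, against 18.5 and 21.8 FPKM in steady-state cKO and wild-type cells. Unlike the other secreted products it was plainly present at steady state, with 1114 reads in cKO and 1353 in wild type. The ratio was 6.98 in cKO (6.55 to 7.44) and 9.31 in wild type (8.80 to 9.86). Both irradiated libraries lay above both steady-state libraries, the pattern this gene was chosen for.

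**Figure D2:**
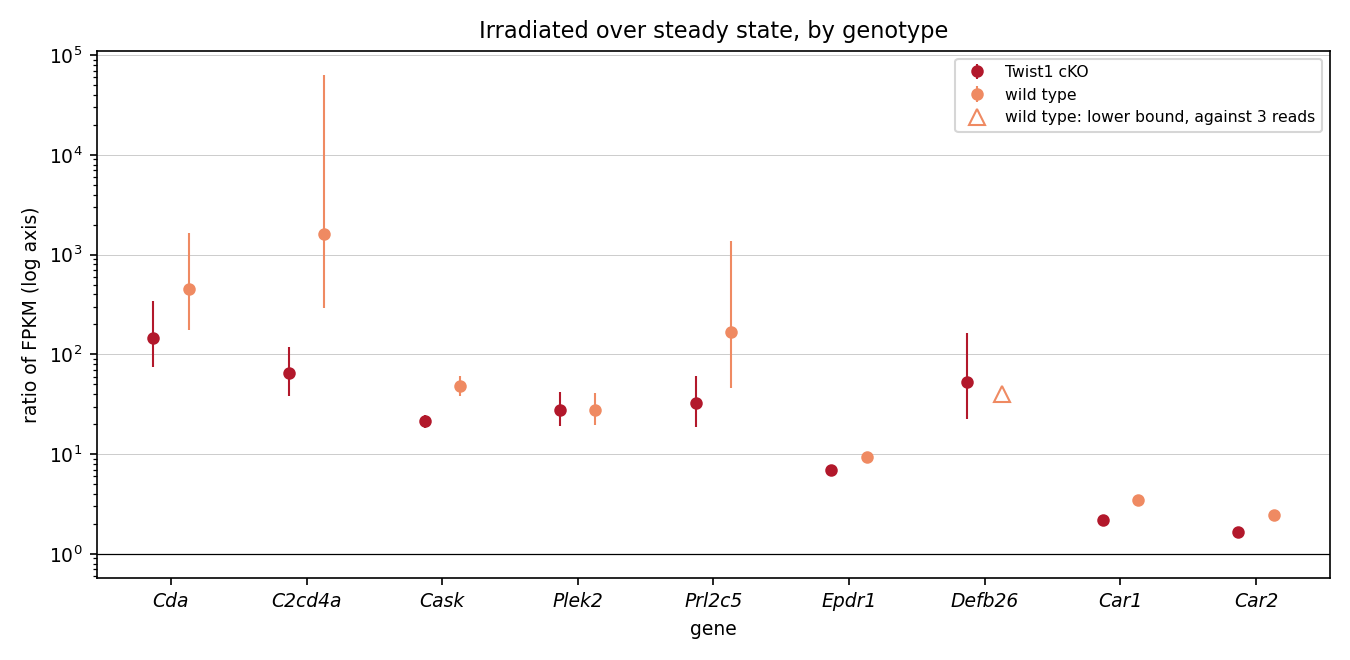
Ratio of FPKM, irradiated over steady state (log axis), for each gene in cKO and wild-type cells, with bars for 95% counting intervals. The open triangle, labelled a lower bound, is the ratio taken against 3 reads where no read was found. Ratios run from 1.66 for Car2 in cKO to 1610 for C2cd4a in wild type, whose interval starts at 289.

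The rises of the 9 genes all lay in the upper part of the distribution over all genes, where most of them were chosen to be. In cKO cells their log2(FPKM + 1) differences ran from 0.73 (Car2, rank 1202) to 5.14 (Cda, rank 15), with a median of 3.40. In wild-type cells they ran from 1.31 (Car2, rank 740) to 5.89 (Cda, rank 7), with a median of 3.48. Cask, Plek2 and Prl2c5 kept close together, at 3.38, 3.58 and 3.40 in cKO and 3.72, 3.70 and 3.48 in wild type. A rise of at least 3 on this scale in both genotypes was shared by 25 of the 7039 genes kept in both, and 6 of the 25 were members (all of those named above except Epdr1, Car1 and Car2). Of the other 19, 15 carried predicted-gene, RIKEN or pseudogene symbols.

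**Figure D3:**
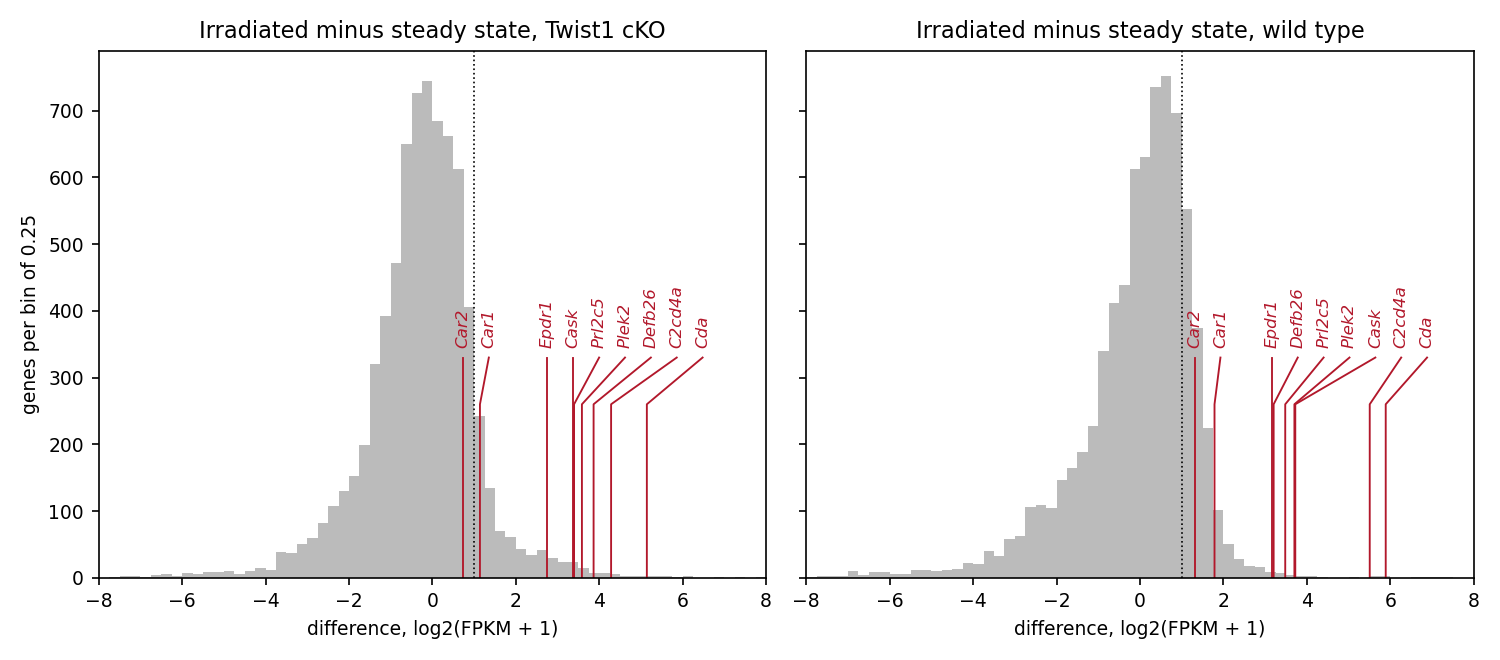
Number of genes per 0.25 of the log2(FPKM + 1) difference, irradiated minus steady state, in cKO (left) and wild-type cells (right), with the 9 genes marked by red lines and the 2-fold threshold dotted. Car2 lies left of the threshold in cKO, at 0.73, and Cda is furthest right in both panels, at 5.14 and 5.89.

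The rise was larger in wild-type than in cKO cells for 8 of the 9 genes on the log2(FPKM + 1) scale, the exception being Defb26 (3.86 in cKO and 3.20 in wild type). This order moved with the whole distribution: the median difference over all genes was -0.20 in cKO and 0.21 in wild type. After centring on these medians, an alternative chosen after the data were seen, the rise was larger in cKO for Defb26 (by 1.06), Prl2c5 (0.32), Plek2 (0.28) and Cask (0.06). It remained smaller in cKO for C2cd4a (by -0.82), Cda (-0.35), Car1 (-0.24), Car2 (-0.17) and Epdr1 (-0.02). For Defb26 the order also rests on the pseudocount, since its steady-state wild-type value is 0, and with a pseudocount of 0.1 no gene rose more in cKO. The difference between the genotypes was not tested.

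The comparison of Twist1 cKO with wild-type cells asks what loss of this basic helix-loop-helix factor does. Twist1 itself had 0 reads in irradiated cKO, 5 in irradiated wild-type, 2 in steady-state cKO and 6 in steady-state wild-type cells, too few to check the labels. At steady state 3 of the 9 genes were kept and 0 were called, where 0.643% of all 7157 genes were called higher and 2.70% lower in cKO. With a ratio of cKO to wild type of 0.687 (0.677 to 0.697), Car1 lay furthest from 1 among the 3 kept. The remaining 6 were below 1 FPKM in both steady-state libraries. Of these, Cask had a ratio of 2.43 (1.87 to 3.18), Prl2c5 of 6.70 (1.52 to 61.2) and C2cd4a of 14.4 (2.20 to 611), the last against a single read. Plek2 had a ratio of 0.875 (0.510 to 1.49) and Cda of 2.06 (0.553 to 9.36), both with intervals that include 1. Defb26 had a ratio of 1.72 against the level of 3 reads, but 5 reads against 0 leave an interval that starts at 0.945.

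After irradiation all 9 were kept, 1 was called higher in cKO, where 4.47% of all 6348 genes were, and 1 was called lower, where 1.04% were. Defb26 was the gene called higher, with a ratio of cKO to wild type of 2.28 (1.80 to 2.90). Car1 was the gene called lower, with a ratio of 0.439 (0.435 to 0.443). Below 1 as well were the ratios of C2cd4a (0.578, 0.530 to 0.631), Car2 (0.6196, 0.615 to 0.624), Epdr1 (0.637, 0.618 to 0.656), Cda (0.672, 0.621 to 0.726) and Plek2 (0.865, 0.781 to 0.958). Prl2c5 (1.30, 1.11 to 1.52) and Cask (1.09, 1.04 to 1.14) lay above 1. The median log2 difference over all genes was -0.45 in this comparison. The authors' library size was 0.895 times the reads recovered in irradiated wild-type cells and 1.15 times those in irradiated cKO cells. Scaled to recovered reads, Car1 stood at -0.82, Defb26 at 1.43 and the median over all genes at -0.11. Relative to the median as deposited Plek2 changes sign, from -0.20 to 0.25, and Car1, at -0.74, is no longer called, while Defb26 stands at 1.55. The genotype comparisons and the irradiation comparisons use the same 4 libraries, so their values for a gene are not independent.

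**Figure D4:**
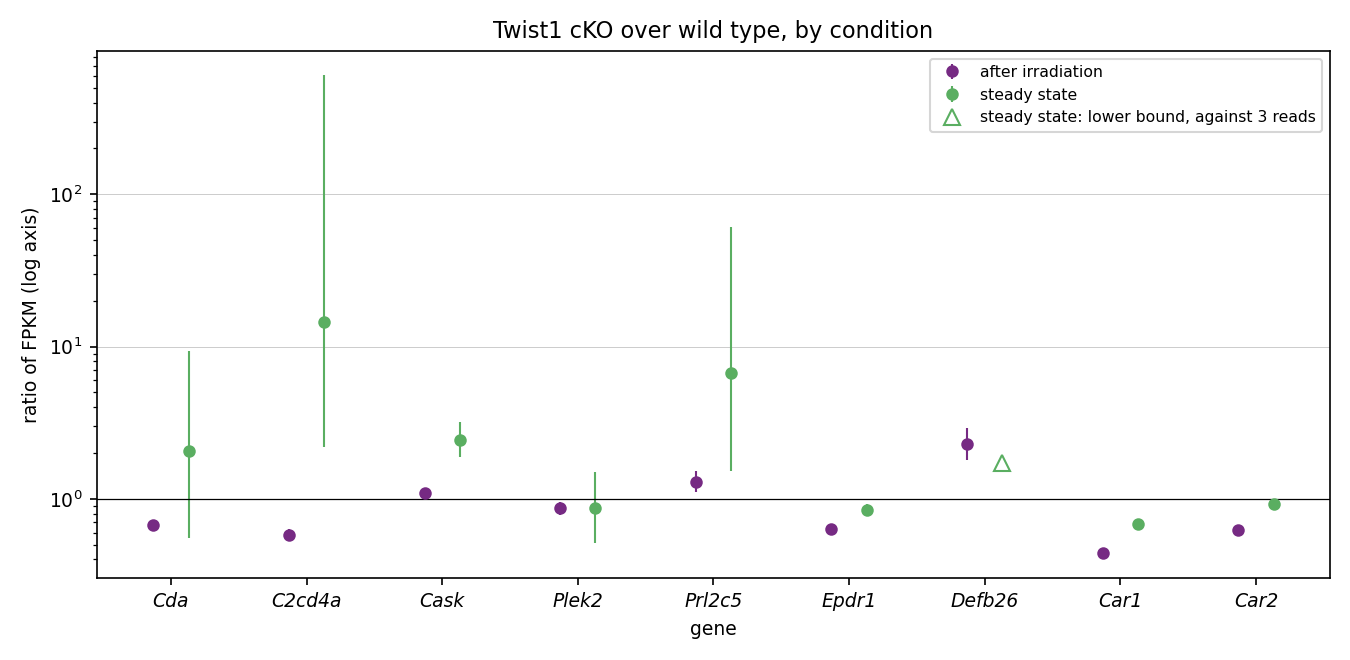
Ratio of FPKM, Twist1 cKO over wild type (log axis), after irradiation and at steady state, with bars for 95% counting intervals. The open triangle, labelled a lower bound, is the ratio taken against 3 reads where no read was found. After irradiation Defb26 is highest at 2.28 and Car1 lowest at 0.439, and at steady state the interval of C2cd4a runs from 2.20 to 611.

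Genes with the most similar pattern were found by the Euclidean distance between centred log2(FPKM + 1) values over the 4 libraries, among 5039 genes reaching 10 FPKM. Among the low genes the nearest were mostly each other, which follows from picking genes for this pattern: C2cd4a was nearest to Cda (0.66) and Prl2c5 to Cask (0.20). Outside the 9, the nearest were Fabp1, the liver fatty acid-binding protein (0.53 from Prl2c5), Mt2, metallothionein 2 (0.58 from Plek2), and Col13a1, a transmembrane collagen (0.76 from Defb26). Fabp1 stood at 12.9 and 10.5 FPKM in irradiated cKO and wild-type cells, against 0.430 and 0.556 FPKM in steady-state cKO and wild-type cells. Epdr1 was nearest to Klf1, the erythroid Krüppel-like factor (0.25), to Rhag, the Rh-associated glycoprotein of red cells (0.26), and to the transcription cofactor Cited4 (0.27). Klf1 stood at 427 and 703 FPKM in irradiated cKO and wild-type cells, against 70.0 and 93.5 FPKM in steady-state cKO and wild-type cells. Car1 was nearest to genes of ribosomes and the respiratory chain, Mrpl52 (0.29), Uqcr10 (0.29) and Rps21 (0.30), and Car2 to Nudt19 (0.03), Txnl4a (0.04) and Smim20 (0.04). A small distance is easily reached by a modest change such as that of Car2, and 4 libraries define few patterns.

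Most neighbouring genes were not called higher in both genotypes, but many were below 5 FPKM and could not be called. Of the protein-coding neighbours kept in both genotypes, Sfrp4, Eif2s1 and Car13 were called higher in both. Car3 was called higher in cKO only and Maoa in wild type only, and Pink1, Mul1 and Stard3nl in neither. Over all genes kept, 10.3% were called higher in cKO and 18.9% in wild type. Sfrp4, the neighbour of Epdr1 and a secreted Wnt antagonist 3344 bases away, stood at 45.8 and 88.0 FPKM in irradiated cKO and wild-type cells, against 5.14 and 9.23 FPKM in steady-state cKO and wild-type cells. Its ratios of 8.91 in cKO (7.76 to 10.3) and 9.53 in wild type (8.61 to 10.6) were close to those of Epdr1, and both were higher in the irradiated wild-type than in the irradiated cKO library. Eif2s1, which encodes the alpha subunit of translation initiation factor eIF2 and lies 1680 bases from Plek2, was called higher too, with ratios of 2.33 in cKO and 3.60 in wild type, far below those of Plek2. Pink1, the mitochondrial kinase gene 12231 bases from Cda, was called lower in both genotypes, at 13.6 and 17.7 FPKM in irradiated cKO and wild-type cells, against 58.2 and 44.3 FPKM in steady-state cKO and wild-type cells. Defb22 and Defb19 on either side of Defb26, Prl2c3, 382609 bases from Prl2c5, and Nyx, 24259 bases from Cask, had 3 reads or fewer in each library. Vps13c, 7985 bases from C2cd4a, was too low to be kept but shared the direction, with ratios of 2.29 in cKO (1.94 to 2.72) and 3.21 in wild type (2.74 to 3.78). On the other side of Cda the pseudogene Rpl38-ps1 was called higher in both genotypes, with ratios of 2.44 in cKO and 3.46 in wild type. Maoa, the nearest protein-coding gene on the other side of Cask but 2772914 bases from it, had ratios of 1.69 in cKO and 3.23 in wild type. It was called in wild type, as was the pseudogene Gm5843, 37195 bases from Car1 (2.69 in cKO and 6.09 in wild type). In the carbonic anhydrase cluster Car13 was called higher in both genotypes and Car3 in cKO.

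**Figure D5:**
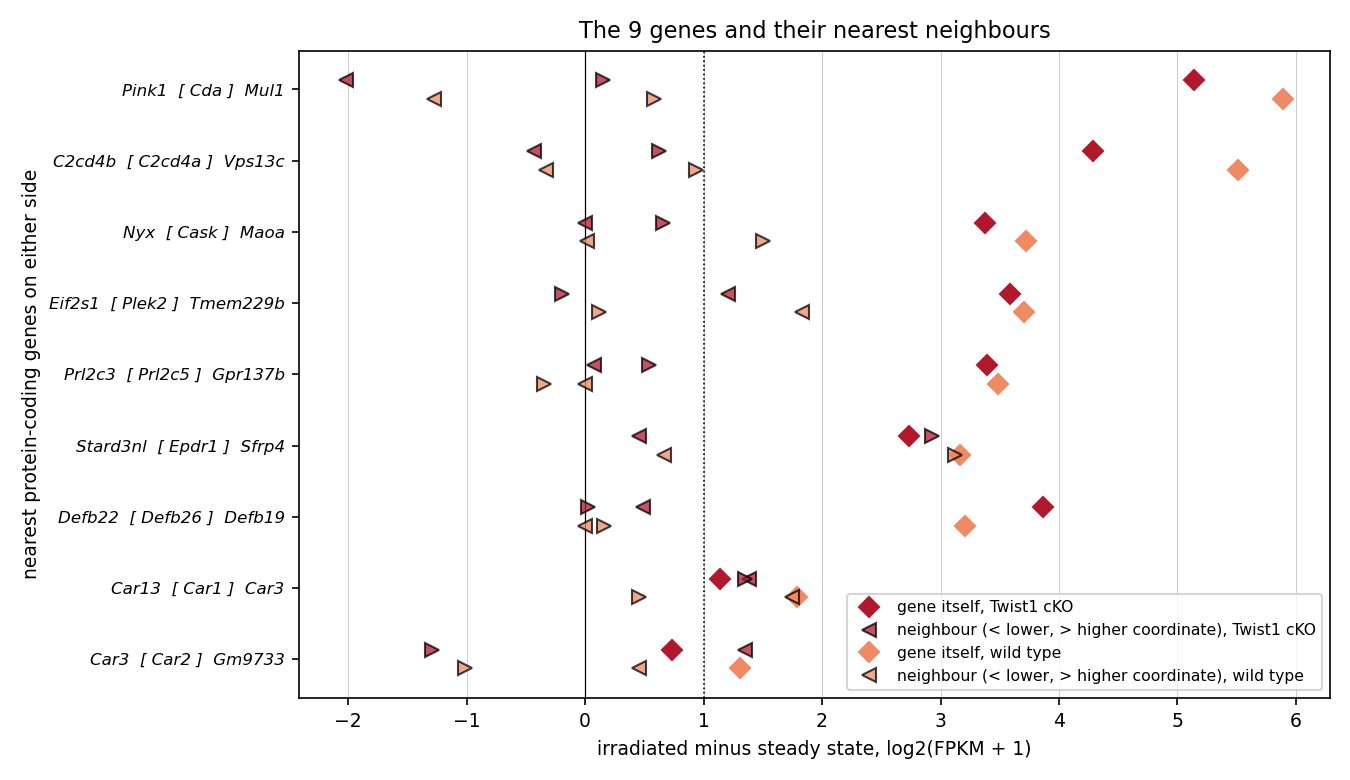
Log2(FPKM + 1) difference, irradiated minus steady state, for each of the 9 genes (diamonds) and the nearest protein-coding gene on either side (triangles pointing to the side), in cKO and wild-type cells, with the 2-fold threshold dotted. Sfrp4 lies beside Epdr1, at 2.93 in cKO and 3.12 in wild type, while most other neighbours lie left of the threshold. Many of those were below 5 FPKM and could not be called.

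Cell identity moved with the irradiation contrast as well. Of 26 erythroid markers, 19 of 21 kept were called higher after irradiation in cKO cells, where 10.3% of all genes were. In wild-type cells 17 of 19 were, against 18.9% of all genes. The medians were 2.09 in cKO and 1.91 in wild type, and no erythroid marker was called lower. None was at 0 in any library. Their summed level was 13544 FPKM in irradiated cKO and 7003 FPKM in irradiated wild-type cells, against 829 FPKM in steady-state cKO and 1746 FPKM in steady-state wild-type cells, and 4 globin genes made up most of the irradiated sums. Without these 4 the sum was 1300 FPKM in irradiated cKO and 1746 FPKM in irradiated wild-type cells, against 307 FPKM in steady-state cKO and 374 FPKM in steady-state wild-type cells. Between the irradiated libraries 11 of 21 kept markers were lower in cKO, as Car1, Car2 and Epdr1 were, and 10 higher. Their median difference was -0.18, against -0.45 over all 6348 genes, so most genes were lower in cKO. Of the 21, 7 were called higher in cKO, where 4.47% of all genes were, and 0 lower. Klf1 (-0.72) and Gata1 (-0.60), erythroid transcription factors, were among the lower, and the alpha-globin gene Hba-a1 (1.14) and Alas2 (1.51), the first enzyme of erythroid haem synthesis, among the higher. Of 15 stem and progenitor cell markers 11 were kept and 10 called lower in each genotype, where 22.6% of all genes were in cKO and 18.9% in wild type. Cd34 and Flt3 (Flk2), whose products the sorting gate excludes, were in this list and among the 10. The medians of the 11 were -2.26 in cKO and -2.57 in wild type. Kit, which defines the sorting gate, stood at 4.98 and 8.52 FPKM in irradiated cKO and wild-type cells, against 27.6 and 20.1 FPKM in steady-state cKO and wild-type cells, and Ly6a, the gene of Sca1, stood at 256 and 89.1 FPKM in irradiated cKO and wild-type cells, against 362 and 534 FPKM in steady-state cKO and wild-type cells. Macrophage markers were called higher in cKO in 8 of 11 kept, where 10.3% of all genes were. In wild type 1 of 11 was called higher and 3 of 11 lower, where 18.9% of all genes were called in each direction. At steady state 8 of 10 kept macrophage markers were called lower in cKO than in wild type, where 2.70% of all genes were. Other blood lineages were mostly called lower in wild type, where 18.9% of all genes were. These were 7 of 7 kept megakaryocyte, 6 of 7 neutrophil, 5 of 6 B and plasma cell and 5 of 5 T and NK cell markers. Mast cell, basophil and eosinophil markers were called lower in 3 of 4. In cKO the counts in the same order were 7 of 7, 4 of 8, 2 of 6, 2 of 6 and 2 of 5, where 22.6% of all genes were. Bone and stroma markers were mixed, with 3 of 7 lower and 2 higher in wild type and 2 of 6 lower and 2 higher in cKO. In these bulk libraries a changed share of a cell type and changed RNA per cell cannot be told apart, and the part of other cell types in the rise of the 9 genes was not tested.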

How the data were processed

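RNA-seq of sorted stem cells was analysed in 4 libraries, 1 per group, assigned by the samples' labels; 2 ATAC-seq samples were not analysed here. The deposited values are FPKM per gene, normalised by the authors to gene length and library size. Tools named for the series in the submitters' processing notes are HOMER, MACS2 2.1.0, BWA 0.7.12-r1039 and Bowtie, with the build mm10; the step that made the FPKM and its use of strand are not given in the sources used here. Symbols were joined to 30231 of 30409 identifiers.

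Whole reads behind the FPKM were recovered from the ratios of a gene's values between libraries, for 100% of the 29934 genes above 0. They can be low by a whole factor; lengths matched the annotation for 12 of 13 mitochondrial genes. Recovery and calling were tested on simulated data. The implied library sizes were 23450734 (irradiated cKO), 22146433 (irradiated wild type), 25239648 (steady-state cKO) and 26031985 (steady-state wild type), and recovered reads in genes were 20349832, 24743747, 22127571 and 25100818 in the same order, so that they exceeded the implied size in irradiated wild type. Differences are of log2(FPKM + 1), for genes whose higher library reached 5 FPKM, and were called at 2-fold. Intervals at 95% are Clopper-Pearson for levels and conditional exact binomial for ratios. For the ratio itself a value of 0 was set to 3 reads, while its interval uses the observed 0 reads. Python 3.11.15, pandas 2.3.3 and SciPy 1.17.1 were used.

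The 9 genes and all gene lists were chosen with earlier results of these data known. Besides the 9 genes, those named are up to 4 per list with the largest differences, list members at 5 FPKM or more in small families, the 3 nearest patterns, neighbours, Kit, Ly6a and Twist1. Ddx3y, Xist, Gpr34, Gpr82, Gata1, Alas2, Sdc3, Slc29a1, Aqp1, C2cd4d, Prlr, Prl2c1, Defb2 and Defb47 were named after their values were seen. Gene positions and promoters are RefSeq's (GRCm38.p6, the assembly of mm10); the promoter table's start lies inside the gene's span for Cda, Plek2 and Prl2c5. Alternatives were other pseudocounts, minimum levels and scalings.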

Additional observations from a re-analysis of the deposited data

Results flagged for a closer look

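The ratio of Twist1 cKO to wild type pointed in opposite directions in the 2 conditions for Cda and C2cd4a, which is why they are listed here. For Cda it was 0.672 after irradiation (0.621 to 0.726) and 2.06 at steady state (0.553 to 9.36), the steady-state value resting on 8 reads in cKO and 4 reads in wild type. For C2cd4a it was 0.578 after irradiation (0.530 to 0.631) and 14.4 at steady state (2.20 to 611), the steady-state value resting on 14 reads in cKO and 1 read in wild type. After irradiation the median log2(FPKM + 1) difference over all genes was -0.45, so most genes were lower in cKO. Cda stood at -0.56 and C2cd4a at -0.77, or at -0.11 and -0.32 relative to that median. Neither gene reached 5 FPKM at steady state in either genotype, and the difference between the conditions was not tested.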

How the results depend on the processing

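Results were recomputed under 9 other settings (pseudocounts of 0.1 and 5, minimum levels of 1 FPKM, 20 FPKM and none, median-of-ratios and upper-quartile scaling, the 50 most abundant genes left out with the rest rescaled, and scaling to recovered read totals) and, chosen after the data were seen, centring on the median of all genes. Every rise after irradiation kept its direction for the 9 genes in both genotypes under all 10, but the genes were chosen for these rises. Of 360 member differences 260 stayed within the counting interval and 100 moved beyond it. The minimum levels enter only the calls, so differences under those settings could not move and count among the 260. In wild type the members called higher ran from 6 to 9, and in cKO they fell to 4 of the 8 (Cda, C2cd4a, Epdr1 and Car1) with a minimum of 20 FPKM, by construction. Over all genes, those called higher after irradiation ran from 457 (minimum of 20 FPKM) to 3404 (upper quartile) in cKO and from 751 (50 genes left out) to 3027 (upper quartile) in wild type. The calls between genotypes after irradiation were less stable: of the 2 members called, only Car1 was left with a pseudocount of 5 or a minimum of 20 FPKM (1), and only Defb26 under upper-quartile scaling, with 50 genes left out, with recovered totals or after centring (1); Car1 then ran from -0.82 to -0.65. Over all genes, 284 were called higher and 66 lower in that comparison, and these counts ran from 134 to 812 and from 30 to 125. Plek2 (in both genotype comparisons) and Car2 (at steady state) changed sign between cKO and wild type under some scalings, within -0.21 to 0.31 for Plek2 and -0.12 to 0.09 for Car2. The number of members with the larger rise in cKO was 1 as deposited, 0 with a pseudocount of 0.1, 2 with a pseudocount of 5 or median-of-ratios scaling, 3 with 50 genes left out or recovered totals, and 4 under upper-quartile scaling or centring; the cause was not tested. Depth limits the steady-state values of Cda, C2cd4a, Prl2c5 and Defb26, which rest on 0 to 14 reads. No paired analysis was possible because each group held 1 library. Leaving out a replicate could not be done for the same reason, and protein alignments were not run.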
